A study of Mus musculus with 2 samples.

Results

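The genes described here are Usb1 and 9 genes whose products add, remove or protect nucleotides at the ends of small nuclear RNAs. They were chosen by name, as Usb1 together with Tut1, Toe1, Parn, Tent4a, Tent4b, Dis3l2, Exosc10, Larp7 and Mepce, and all 10 were found among the 32285 genes counted. Their transcripts were counted in 2 libraries, described by the protocol as single cells, from whole mouse embryos at embryonic day 9.5. The wild-type library came from Usb1+/+ embryos and the Usb1-null library from embryos homozygous for a germline CRISPR/Cas9 deletion in Usb1, and both genotypes arose from matings of heterozygous mice. How many embryos were pooled for a library was not given in the sources used here.

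U6 small nuclear RNA, a catalytic part of the spliceosome, is made by RNA polymerase III and ends in a run of uridines. TUT1 lengthens this run, and USB1 shortens it and leaves a cyclic phosphate at the last base. The 7SK RNA, another product of RNA polymerase III with a uridine end, is held by LARP7 and capped by MEPCE, and in this form keeps the transcription elongation factor P-TEFb inactive. Inherited loss of USB1 in humans causes poikiloderma with neutropenia, a disorder of the skin and blood.

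Both ends of 7SK, on which MEPCE and LARP7 act, are shown here from the GENCODE M21 transcripts of GRCm38. The Rn7sk gene lies at chr9:78175303-78175633 on the minus strand. Capitals mark the run of T at the 3′ end, which is read as uridines in the RNA.
Rn7sk, first 40 of 331 bases: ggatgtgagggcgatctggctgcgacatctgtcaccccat
Rn7sk, last 40 of 331 bases: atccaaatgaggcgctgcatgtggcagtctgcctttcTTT
The run held 3 T. The first stretch of Rn7sk is shown because its 5′ end carries the cap that MEPCE adds, while the last stretch is the end held by LARP7. U6 and 7SK RNA were not measured here. The libraries capture polyadenylated transcripts, and Rn7sk is not among the 32285 genes counted. All values below are for transcripts of the genes that encode the enzymes. GEO's labels give the molecule as nuclear RNA, although the protocol describes single cells. Spliced and unspliced transcripts were not told apart in the counts.

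Each library was made with the 10x Genomics 3′ chemistry, which sequences the 3′ part of a transcript and counts each captured molecule once through its unique molecular identifier (UMI). The wild-type library held 21732106 UMIs in 15161 cells with a median of 1243 UMIs per cell, and the Usb1-null library held 33383886 UMIs in 13018 cells with a median of 2299.5. The libraries shared 61 cell barcodes, 0.402% of the wild-type and 0.469% of the Usb1-null cells. Xist was at 2451 UMIs per 1e+06 UMIs of the library (CPM) in the wild-type library and 0.779 CPM in the Usb1-null library, whereas Uty on the Y chromosome was at 0.138 and 353 CPM, so sex and genotype cannot be told apart. None of the 10 genes lies on a sex chromosome. There was 1 library per genotype, so no difference could be tested against variation between embryos, and every 95% interval given here covers counting error only.

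Usb1 was the scarcest of the 10 in UMIs. It had 68 UMIs in the wild-type library, or 3.13 CPM, and 47 UMIs in the Usb1-null library, or 1.41 CPM. The Usb1-null level was therefore 0.450 times the wild-type level, with an interval of 0.303 to 0.662. In cells thinned to 1000 UMIs each, a step that makes the UMIs per cell equal, 0.373% of 10188 wild-type cells (interval 0.264 to 0.512) and 0.137% of 12406 Usb1-null cells (interval 0.0798 to 0.219) held a Usb1 UMI. Without thinning, the shares were 0.449% and 0.361%. Thinning kept 67.2% of the wild-type and 95.3% of the Usb1-null cells, so the cells compared were not selected alike, and it left out 4973 and 612 cells with fewer UMIs. For none of the 10 genes is a cell type known in these embryos that lacks the transcript, so the level of free RNA behind such shares could not be set.

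Usb1 lies on the plus strand at chr8:95332284-95347507 and has 7 exons. The study's scheme of the allele shows exons 1 and 2 removed, while its methods place the guides around exon 2. Exons 1 and 2, at 95332284 to 95332465 and 95333368 to 95333534, hold 271 of the 801 coding bases, or 33.8%. The last exon, near whose end the reads of this chemistry are expected to fall, spans 95346527 to 95347507 and is outside the deleted stretch, so the remaining UMIs do not check the genotype label. Of the genes within 100 kb, named here after their values were seen, Zfp319 next to the start of Usb1 stood at 6.26 and 4.01 CPM, a ratio of 0.641 (0.501 to 0.820), and Mmp15 at 38.3 and 29.7 CPM, a ratio of 0.775 (0.706 to 0.850). Cfap20 and Csnk2a2 in the same window had ratios of 1.17 and 0.888.

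No other gene of the 10 differed by as much as 1.5-fold between the libraries. Of the 10, 0 had a Usb1-null level at least 1.5-fold above the wild-type level, against 6.95% of the 15031 genes with at least 100 UMIs, and 1 was below it by at least 1.5-fold, against 5.43%. The median log2 ratio of the 10 was -0.011, beside -0.012 over all genes counted, and 4 of the 10 were higher. These shares do not set the 10 apart from other genes.

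**Figure D1:**
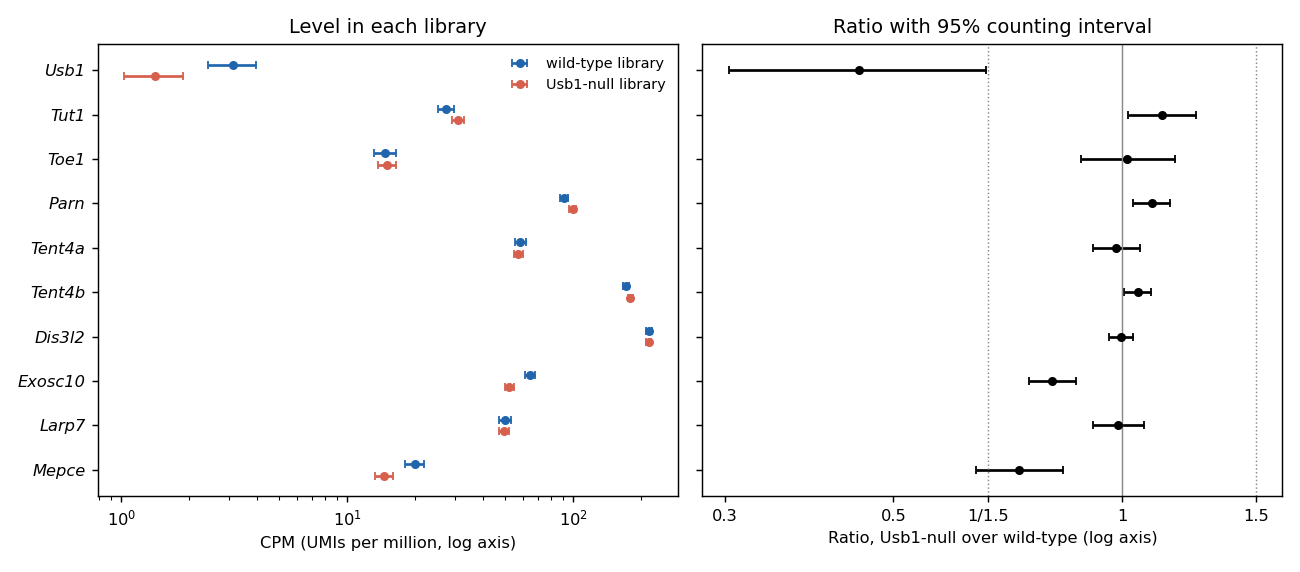
The left panel plots the level of each gene in CPM on a log axis in the wild-type (blue) and Usb1-null (orange) libraries, and the right panel the Usb1-null over wild-type ratio on a log axis, with 95% counting intervals as bars. The solid line is a ratio of 1 and the dotted lines are 1.5-fold in each direction, and only Usb1, at 0.450, lies past a dotted line.

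TUT1 is the uridylyl transferase of U6 RNA, the enzyme that works before USB1. Tut1, at chr19:8953847-8966210 on the plus strand, had 596 UMIs (27.4 CPM) in the wild-type and 1033 UMIs (30.9 CPM) in the Usb1-null library. Its ratio of 1.13 (1.02 to 1.25) was the highest of the 10. In thinned cells the share with a Tut1 UMI was 2.61% and 3.03%, and before thinning it was 3.81% and 7.47%, a wider gap. The intervals of the thinned shares, 2.31 to 2.94 and 2.74 to 3.35, overlapped.

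TOE1 and PARN are deadenylases that remove adenosine tails from immature small nuclear, small nucleolar and telomerase RNAs. Toe1, at chr4:116794310-116807640 on the minus strand, was at 14.8 CPM (321 UMIs) in wild-type and 15.01 CPM (501 UMIs) in Usb1-null cells. The ratio of 1.02 had an interval from 0.881 to 1.17 that includes equal levels. Parn, which spans 130 kb at chr16:13537960-13668170 on the minus strand, was at 91.2 CPM (1981 UMIs) and 99.6 CPM (3326 UMIs), a ratio of 1.09 (1.03 to 1.16). Thinned cells with a UMI made up 1.40% and 1.48% for Toe1 and 8.90% and 9.58% for Parn. The intervals for Parn, 8.36 to 9.47 and 9.06 to 10.1, overlapped.

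TENT4A and TENT4B are the poly(A) polymerases that add such adenosine tails and so oppose PARN and TOE1. Tent4a, at chr13:69497959-69534617 on the minus strand, stood at 58.4 CPM (1269 UMIs) in wild-type and 57.4 CPM (1915 UMIs) in Usb1-null cells. Its ratio of 0.982 (0.915 to 1.06) included 1. Tent4b, at chr8:88199213-88259722 on the plus strand, stood at 171 CPM (3717 UMIs) and 179 CPM (5985 UMIs), a ratio of 1.05 (1.01 to 1.09). Both tailing enzymes thus differed between the libraries by far less than 1.5-fold.

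DIS3L2 degrades RNAs that carry uridine tails, and EXOSC10 is the nuclear exonuclease of the RNA exosome. Dis3l2, which spans 346 kb at chr1:86703808-87050095 on the plus strand, was at 217 CPM (4722 UMIs) and 216 CPM (7224 UMIs), a ratio of 0.996 (0.960 to 1.03). Its log2 ratio moved from -0.0059 to -0.14 in thinned cells, of which 19.7% of the wild-type and 17.9% of the Usb1-null cells had a UMI. Exosc10, at chr4:148558429-148582401 on the plus strand, was at 64.6 CPM (1404 UMIs) in the wild-type and 52.3 CPM (1745 UMIs) in the Usb1-null library. The ratio of 0.809 (0.754 to 0.869) lay below 1, and the log2 ratio of -0.31 became -0.18 in thinned cells, which held a UMI in 6.07% and 5.39%.

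LARP7 and MEPCE bind and cap 7SK, and LARP7 also takes part in the modification of U6. Larp7, at chr3:127536714-127553349 on the minus strand, was at 50.1 CPM (1089 UMIs) and 49.5 CPM (1654 UMIs), a ratio of 0.989 (0.915 to 1.07). Mepce, at chr5:137781906-137787655 on the minus strand, was at 19.9 CPM (433 UMIs) in wild-type and 14.6 CPM (487 UMIs) in Usb1-null cells. The ratio of 0.732 (0.642 to 0.835) was, after Usb1, the furthest from 1 among the 10. Its log2 ratio of -0.45 became -0.25 in thinned cells, of which 1.83% and 1.52% had a UMI.

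Short genes as a class were lower in the Usb1-null library. The median log2 ratio was -0.16 over 3614 genes that span less than 10 kb, of which 37.1% were higher, and it was -0.024 over 4716 genes of 10 to 30 kb. It was 0.037 over 4308 genes of 30 to 100 kb and 0.017 over 2383 longer genes. Mepce spans 5.75 kb and falls in the first class, whereas Usb1, Exosc10, Tut1, Toe1 and Larp7 fall in the second. Ribosomal protein genes took 2.51% of UMIs in the wild-type and 1.80% in the Usb1-null library, and mitochondrial genes 0.435% and 0.191%. The part of depth, gene span and these shares in the values of Mepce and Exosc10 was not tested.

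**Figure D2:**
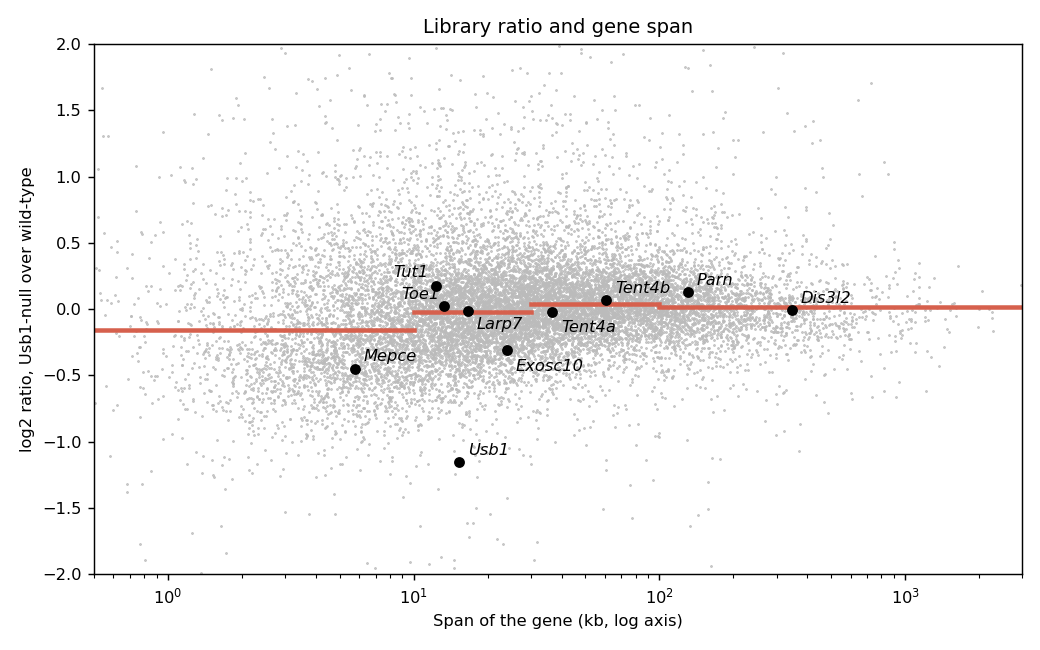
Each grey point is 1 of 15021 genes with at least 100 UMIs and a known span, plotted by span in kb on a log axis (x) and log2 ratio of Usb1-null over wild-type (y), with 94 genes outside the axes. Orange lines are the medians of the 4 span classes and black points the 10 genes, among which Mepce lies in the class with a median of -0.16 and Usb1 and Exosc10 in the class with a median of -0.024.

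Levels were then compared across the clusters of cells in each library. Clustering on both libraries gave 21 clusters, of which 18 held at least 100 cells of each library, and a gene was counted in a cluster where it had at least 20 UMIs over both libraries. A cluster was named "-like" where marker genes of 1 cell type were raised in it and any of them was among its leading genes. Other clusters are given by number. Among these 18 clusters the 8 names were spinal cord progenitor-like, roof plate-like, floor plate-like, neuron-like, endothelial-like, cardiomyocyte-like, primitive erythroid-like and intermediate mesoderm-like. Since the genes were part of the data that were clustered, differences between clusters are described and not tested. Usb1 had at most 10 UMIs per cluster in either library and was counted in none, so it has no level by cell type at this depth.

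**Figure D3:**
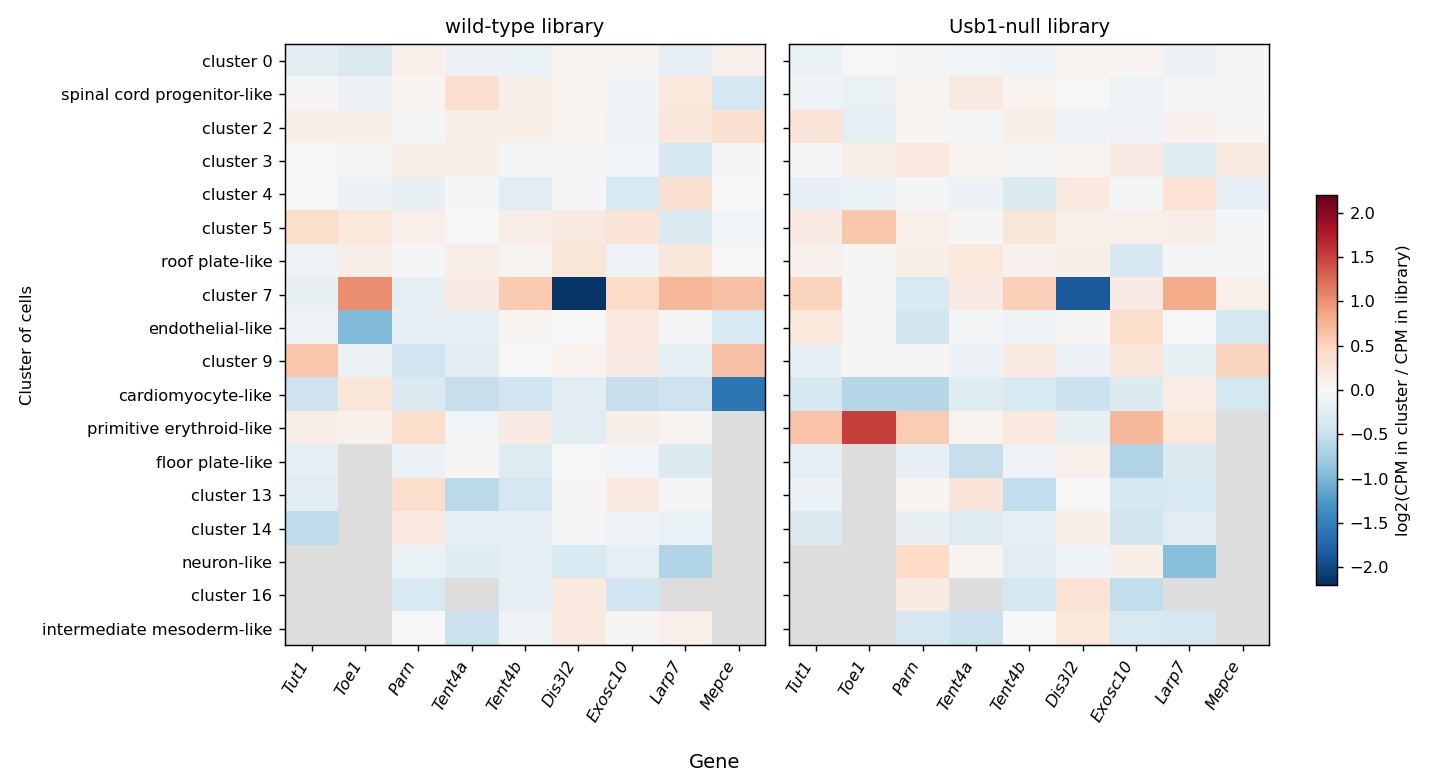
Colour shows the log2 of the CPM in a cluster (rows) over the CPM in the whole library for the 9 genes other than Usb1 (columns), in the wild-type (left) and Usb1-null (right) library. Grey marks fewer than 20 UMIs over both libraries, and the darkest cell in both panels is Dis3l2 in cluster 7, at 48.9 and 59.9 CPM.

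Dis3l2 was lowest in cluster 7 in both libraries, with intervals apart from those of every other cluster. In this cluster, whose first 3 leading genes by fold were Gm15892, Nfe2l3 and Msh4, Dis3l2 was at 48.9 CPM (36 UMIs) in the wild-type and 59.9 CPM (61 UMIs) in the Usb1-null library. All other wild-type cells together had 223 CPM and all other Usb1-null cells 221 CPM, so that the level in cluster 7 was 0.219 times (0.153 to 0.304) and 0.271 times (0.207 to 0.348) that of the other cells. The other 17 clusters lay between 172 and 261 CPM in the wild-type library, and between 156 and 268 CPM in the Usb1-null library. Among these the neuron-like cluster was lowest in the wild-type and the cardiomyocyte-like cluster in the Usb1-null library.

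Cluster 7 also differed in its RNA. Its cells had a median of 720 UMIs (wild-type) and 1193 UMIs (Usb1-null), less than the medians of all cells. Genes longer than 100 kb took 22.9% and 23.2% of its UMIs against 35.1% and 35.5% in all cells, and the nuclear RNA Malat1 was at 2445 and 2747 CPM against 7678 and 8261 CPM. The median log2 level relative to the other cells, with 1 CPM added to both, was -0.68 and -0.75 for genes over 100 kb, and 0.45 and 0.42 for genes under 10 kb. Dis3l2, the longest of the 10, was below its class at -2.17 and -1.87, whereas Parn, the other gene over 100 kb, was at -0.22 and -0.35. The part of gene span in the low Dis3l2 level was not tested. With another random seed these cells did not form a cluster of their own, and the highest Dis3l2 level of a cluster (the mean over both libraries) was then 1.53 times the lowest, against 4.77 times here.

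Tent4b and Larp7 were at their highest in cluster 7 in both libraries. With another random seed, under which these cells were no cluster, the highest cluster was 1.61 times the lowest for Tent4b, against 2.00 times here, and 2.21 times for Larp7, against 2.97 times. Tent4b was at 254 CPM (187 UMIs) and 257 CPM (262 UMIs) there, 1.51 times (1.30 to 1.75) and 1.46 times (1.28 to 1.65) the level in other cells. On the log2 scale with 1 CPM added this was 0.59 and 0.54, beside medians of 0.12 and 0.093 for genes of its span class, 30 to 100 kb. Its lowest levels were 126 CPM in the cardiomyocyte-like cluster of the wild-type library and 124 CPM in cluster 13, led by Nepn, Afp and Rfx6, of the Usb1-null library. Larp7 in cluster 7 was at 82.8 CPM (61 UMIs) and 87.5 CPM (89 UMIs), 1.69 times (1.28 to 2.19) and 1.81 times (1.44 to 2.24) the other cells. This was 0.75 and 0.84 on the log2 scale, beside medians of 0.32 and 0.32 for genes of 10 to 30 kb, the class of Larp7. The neuron-like cluster was lowest for Larp7 in both libraries, at 31.5 and 25.9 CPM, although its intervals overlapped those of many other clusters.

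**Figure D4:**
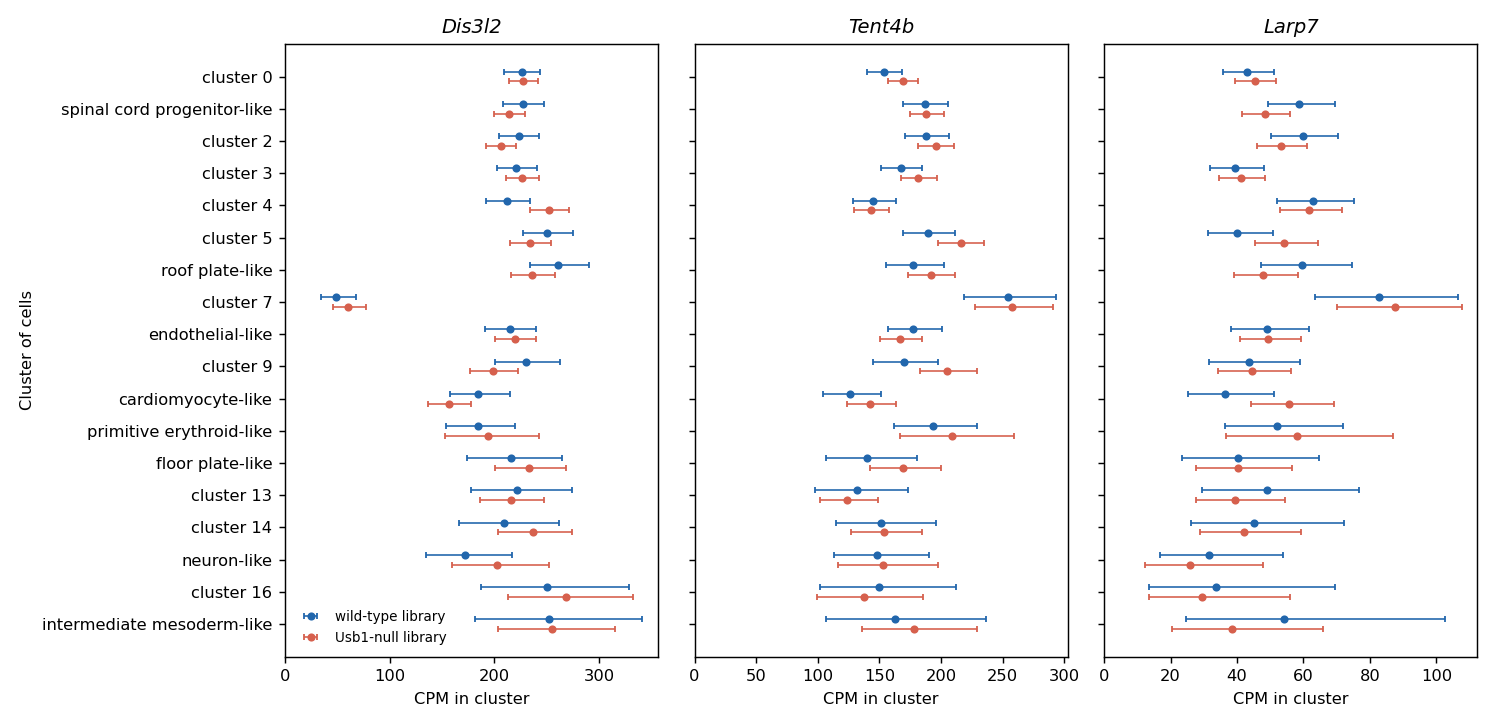
CPM of Dis3l2, Tent4b and Larp7 (x) in each of the 18 clusters (y), with 95% counting intervals, in the wild-type (blue) and Usb1-null (orange) libraries. Cluster 7 is lowest for Dis3l2 (48.9 and 59.9 CPM) and highest for Tent4b (254 and 257 CPM) and Larp7 (82.8 and 87.5 CPM), and most other intervals of neighbouring clusters overlap.

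The clusters stood in a like order in both libraries for some genes more than for others. Across the clusters counted, Pearson's r between the libraries was 0.915 for Tent4b and 0.902 for Dis3l2 over 18 clusters, and 0.756 for Larp7 over 17. Without cluster 7 these became 0.867, 0.662 and 0.502. For Mepce r was 0.770 over 11 clusters, with the cardiomyocyte-like cluster lowest in both libraries, at 6.64 CPM from 6 UMIs and 11.1 CPM from 16 UMIs. For Exosc10, Parn, Tent4a, Tut1 and Toe1 r was 0.459, 0.409, 0.363, 0.246 and 0.0215. The points of each r share their clustering and differ in depth, and at the UMI numbers of Tut1 and Toe1 the order of most neighbouring clusters lies within counting error.

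Parn was highest in the primitive erythroid-like cluster of both libraries, at 120 CPM (83 UMIs) in wild-type and 146 CPM (58 UMIs) in Usb1-null cells. Its lowest values were 67.6 CPM in cluster 9 of the wild-type and 64.6 CPM in the cardiomyocyte-like cluster of the Usb1-null library. Toe1, the other deadenylase, was at 15.9 CPM from 11 UMIs in the primitive erythroid-like cluster of the wild-type and at 42.9 CPM from 17 UMIs in that of the Usb1-null library, a ratio of 2.70 (1.19 to 6.37). This cluster held 599 wild-type and 189 Usb1-null cells. In cluster 7 Toe1 lay the other way, at 29.9 CPM from 22 UMIs in wild-type and 14.7 CPM from 15 UMIs in the Usb1-null ones, with a ratio of 0.493 (0.238 to 0.995). Both Toe1 clusters are given because their intervals leave out 1. Such intervals lay above 1 in 2 clusters each for Parn and Larp7 and in 1 each for Tut1, Tent4a and Dis3l2. They lay below 1 in 7 clusters for Exosc10 and 3 for Mepce, and Tent4b had no such cluster. Many intervals were read, without correction for their number. Tent4a ranged from 38.7 to 75.4 CPM in the wild-type clusters and from 40.2 to 70.0 CPM in the Usb1-null clusters, and Tut1 from 18.6 to 41.6 CPM and from 24.3 to 47.9 CPM.

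Of the 4 genes counted in all 18 clusters, 0 were higher in every cluster and 0 lower in every cluster of the Usb1-null library, against 4.71% and 5.4% of the 4817 genes so counted. The Usb1-null library was lower for Exosc10 in 16 of the 18 clusters counted and for Mepce in 10 of 11. The share of all genes lower in that many clusters was not counted. All clusters come from the same 2 libraries and are not independent of each other. Exosc10 stood at 67.5 and 53.5 CPM in cluster 0, the one with the most cells, at 79.0 and 56.3 CPM in cluster 5, led by Cdh19, Tfap2b and Sox10, and at 61.2 and 40.7 CPM in the roof plate-like cluster. The exceptions were the primitive erythroid-like cluster, at 70.7 and 85.7 CPM, and the neuron-like cluster, at 55.7 and 57.0 CPM, both with wide intervals. Mepce stood at 21.5 and 14.1 CPM in cluster 0 and at 25.3 and 14.9 CPM in cluster 2, led by Pax5, Otx2os1 and Otx2, and was higher in Usb1-null cells only in the cardiomyocyte-like cluster. Usb1-null levels were higher for Tent4b in 14 of 18 clusters, for Tut1 in 12 of 15 and for Parn in 11 of 18. The counts were 11 of 18 for Dis3l2, 8 of 17 for Tent4a, 8 of 17 for Larp7 and 7 of 12 for Toe1. The majority turned with the clustering for Dis3l2, to 8 of 18 without library correction, 10 of 21 at a finer resolution and an even 9 of 18 with doublets removed, for Tent4a, to 9 of 17 with doublets removed and 9 of 16 with another seed, and for Larp7, to 11 of 20 at the finer resolution and 10 of 16 with another seed. For Toe1 it became even, at 6 of 12, without library correction.

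Genes with the most similar pattern were found by Pearson's r of log2(CPM + 1) over 36 points, the 18 clusters in each library, for the 7 of the 10 with at least 1000 UMIs. Toe1, Mepce and Usb1 had fewer. Dis3l2 was most like AW554918 (r = 0.94), Smg6 (0.92) and Rsrc1 (0.91), but without cluster 7 these values were 0.50, 0.54 and 0.46. Tent4b was most like Ctps (0.86), Pom121 (0.86) and Atad5 (0.82), which kept 0.82, 0.79 and 0.74 without that cluster. Larp7 was most like Mcm5 (0.77), Hnrnpa0 (0.76) and Orc1 (0.76), or 0.62, 0.64 and 0.60 without it. Tut1 was most like Zfp598 (0.80), Wdr75 (0.77) and Eif3a (0.77), and Parn like Orc3 (0.74), Ecm2 (0.68) and Xrcc5 (0.68). Tent4a was most like Tma16 (0.76), Sf3a2 (0.75) and Cyb5b (0.74), and Exosc10 like Eif4a1 (0.78), Rps9 (0.77) and Wdr18 (0.77). With each library centred on its own mean, the values for Exosc10 were 0.76, 0.68 and 0.69, and those of the other 6 genes were between 0.66 and 0.94.

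The genes around this set were read from 7 lists of the same pathways, in each of which the gene with the highest and the lowest ratio is named. The share to set beside the counts is that over all 15031 genes counted, of which 48.4% were higher in the Usb1-null library. Of 10 proteins that bind the U6 end or work with it, such as the La protein and the LSM ring, 4 were higher and 6 lower in the Usb1-null library, with a median log2 ratio of -0.16. Lsm7, a subunit of the ring, was at 68.6 and 40.1 CPM, a ratio of 0.585 (0.543 to 0.630), and Mettl16, which methylates U6, was highest at 1.09. All genes under 10 kb also had a median of -0.16, but this list holds longer genes, such as Ssb at 10.3 kb, and was not split by span. The part of gene span and of the shares of ribosomal and mitochondrial UMIs in these values was not tested. Of 5 genes of P-TEFb and its 7SK inhibitors, 4 were higher, a list too short to set apart from that share. Hexim1, the inhibitor bound by 7SK, was at 4.14 CPM (90 UMIs) and 6.47 CPM (216 UMIs), a ratio of 1.56 (1.22 to 2.02) that was under 1.5 with a minimum of 1000 genes per cell or with 1 CPM added. Its relative Hexim2 was at 3.68 CPM (80 UMIs) and 2.55 CPM (85 UMIs), a ratio of 0.692 (0.504 to 0.951).

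Of 9 other terminal nucleotidyl transferases counted, 8 were higher, with a median log2 ratio of 0.15. None of the 9 passed 1.5-fold, but 1 was at least 1.5-fold higher with wild-type cluster shares, as a mean over cells and in thinned cells, and 1 was at least 1.5-fold lower as a mean over cells. They ran from Tent5c, at a ratio of 0.686 (0.468 to 1.01), to the X-linked Tent5d, at 1.46 (1.19 to 1.79). The 16 exosome subunits and cofactors counted were near balance, with 9 higher, 7 lower and a median of 0.012, from Exosc1 at 0.674 to Exosc2 at 1.26. Of 18 other deadenylases and 3′ exonucleases, 12 were higher, with a median of 0.11, from Pnldc1 at 0.735 to Angel1 at 1.36.

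The synthesis and assembly of small nuclear RNAs was represented by 30 genes, of which 14 were higher and 16 lower, with a median of -0.042. Gemin7, of the SMN complex that loads the Sm ring, was at 17.1 and 9.97 CPM, a ratio of 0.584 (0.502 to 0.679), and Ints12, of the Integrator complex that cleaves nascent small nuclear RNA, was at 22.2 and 31.1 CPM, a ratio of 1.40 (1.26 to 1.56). Of 7 telomerase genes, 3 were higher and 4 lower, with a median of -0.062, from Nhp2 at 0.677 to Naf1 at 1.32. Tent5b, Papolb, Exosc6, Isg20 and Gemin4 had under 100 UMIs and were left out.

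**Figure D5:**
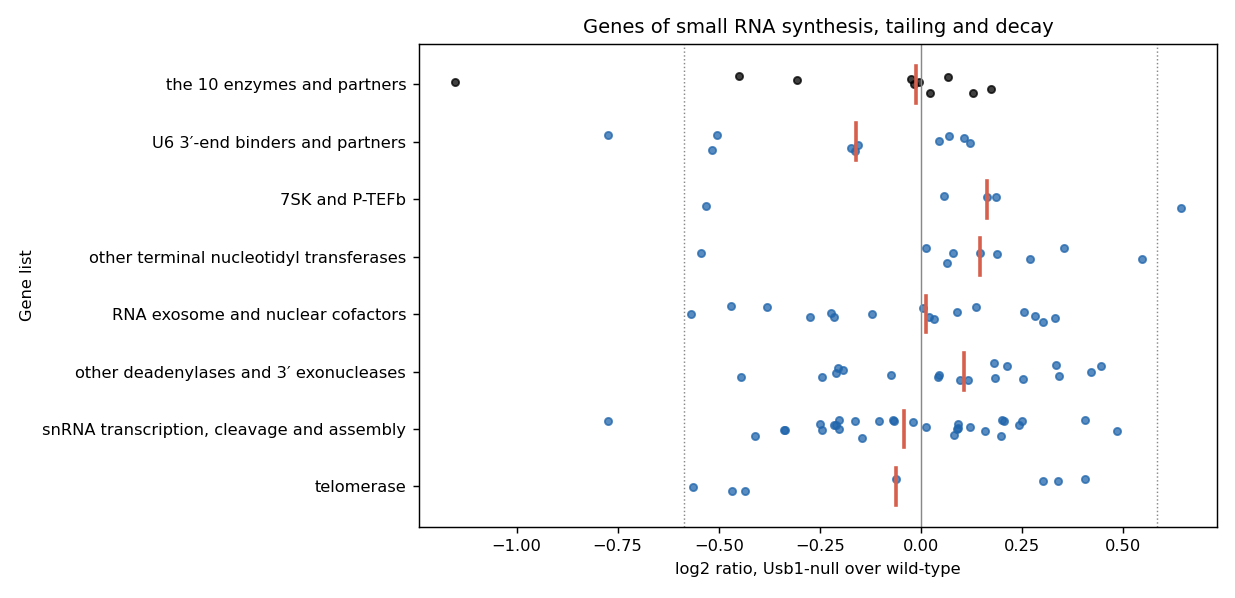
Each point is a gene with at least 100 UMIs, placed by its log2 ratio of Usb1-null over wild-type (x) in its list (y), and orange bars are the list medians, from -0.16 for the U6 3′-end binders to 0.16 for the 7SK and P-TEFb genes. Dotted lines mark 1.5-fold, and the points past them are Usb1, Lsm7, Gemin7 and Hexim1, the last of which was under 1.5-fold with a minimum of 1000 genes per cell or with 1 CPM added.

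Some reads of these genes could belong to neighbours. Tesk2 overlaps Toe1 and Nsun2 overlaps Tent4a on the other strand, as annotated. The antisense gene Gm28375, with 2930 UMIs over both libraries, overlaps Dis3l2, and the counted gene Gm29055, with 147 UMIs, lies within Dis3l2 on its own strand. Larp7 holds 5 microRNA genes, of the Mir302 and Mir367 cluster, on the other strand.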

How the data were processed

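The authors deposited, for each library, unnormalised UMI counts per gene and cell barcode from 10x 3′ v3.1 libraries. The file header names Cell Ranger 6.1.2, whereas the submitters' processing notes name version 2.1.1 and build mm10; the authors' annotation was not given in the sources used here. GEO's labels give the molecule as nuclear RNA although the protocol describes a suspension of single cells. Barcodes with 200 to 6000 genes and under 30% mitochondrial UMIs were kept, the limits stated by the study. Of 15162 barcodes in the wild-type library they left 15161, and of 13034 in the Usb1-null library 13018, more wild-type and fewer Usb1-null cells than the study's methods state, so the cells are not exactly those of the study. Doublets called by Scrublet in Scanpy 1.11.5, 1025 wild-type (6.76%) and 560 Usb1-null (4.30%), stayed in except in an alternative.

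Levels are UMI sums over the cells of a library or cluster, scaled to CPM. Intervals at 95% were exact Poisson for levels, Clopper-Pearson for shares and exact conditional binomial for ratios (SciPy 1.17.1). Only the ratio interval was run on simulated counts. These were drawn from the Poisson model it assumes, without added spread between cells or embryos. The run checks the computation and not whether the interval suits these data. Clusters came from 3131 variable genes, 30 components, a NumPy version of Harmony, 15 neighbours and Leiden resolution 0.4. Clusters were named where at least 3 markers of a cell type were raised at least 2-fold and any marker of that type was among the 10 leading genes. No other cell type could tie in raised markers or have more leading ones, and cells of low depth were not named. This rule was set after the clusters were seen. A total of 32158 gene identifiers (99.6%) matched GENCODE M21. The 10 genes and the lists were chosen with earlier results of these data known. The named genes were all 10, the highest, the lowest and those past 1.5-fold in each list, and the 3 most alike genes. Alternatives changed the cell filters, the scaling, the thinning and the clustering.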

Additional observations from a re-analysis of the deposited data

How the results depend on the processing

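The log2 ratios of the 10 genes were recomputed under 13 alternatives, 2 of them chosen after seeing the data (without cluster 7, and without a cluster found only in Usb1-null cells). Usb1 ranged from -1.44 to -0.78, Tut1 from 0.15 to 0.22, Parn from 0.11 to 0.17, Exosc10 from -0.32 to -0.18 and Mepce from -0.46 to -0.25, each on 1 side of 0 throughout. These ranges carry no counting interval. In thinned cells the intervals of the shares with a UMI overlapped between the libraries for Tut1, Parn, Exosc10 and Mepce. Those of Usb1 lay apart. Values on both sides of 0 were found for Toe1 (-0.0061 to 0.11), Larp7 (-0.056 to 0.077) and Dis3l2 (-0.14 to 0.0062). Dis3l2 moved to -0.091 with a minimum of 1000 genes per cell and to -0.14 in thinned cells, in which Exosc10 moved to -0.18 and Mepce to -0.25. Genes at least 1.5-fold higher and lower numbered 2280 and 1269 with a minimum of 20 UMIs, and 4218 and 4404 with none. The percentage of clusters higher in Usb1-null cells was 5.56 for Exosc10 and 0 for Mepce without library correction, 22.2 and 0 with doublets removed, and 5.88 for Exosc10 with another seed. Among the 5 genes of 7SK and P-TEFb, the number at least 1.5-fold higher went from 1 to 0 with a minimum of 1000 genes or 1 CPM added, and the number at least 1.5-fold lower from 0 to 1 with doublets removed, as a mean over cells and in thinned cells. In thinned cells 1 exosome gene was at least 1.5-fold lower and 1 gene of small nuclear RNA synthesis at least 1.5-fold higher, against 0 each. The ratio of the highest to the lowest cluster for Mepce went from 2.91 to between 1.78 and 1.92 at Leiden resolution 0.8, without library correction and with doublets removed. The cause of these moves was not tested.

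No paired analysis was possible because each genotype had 1 library, and no library could be left out. Depth limits Usb1 most: with 68 and 47 UMIs, no cluster gave a level.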
